A study of Mus musculus with 6 samples.

Results

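Genes of mitochondrial ribosomal proteins were compared between 3 wild type (WT) and 3 SOD1 samples of brainstem motor neuron RNA from mice. All probe sets with exactly 1 platform gene symbol that starts with Mrpl or Mrps and a digit were taken, which gave 156 of the 45101 probe sets of the array, for 76 genes. Mrpl genes are named for the large subunit of the mitochondrial ribosome and Mrps genes for the small subunit. SOD1 is the gene of copper-zinc superoxide dismutase. Which change of that gene the SOD1 group carries, its promoter and strain, the age of either group and the way the motor neurons were collected could not be taken from the labels. Whether each sample is a different animal is not stated, and the p-values therefore reflect only how far these samples scatter, which may be partly technical. The RNA of all 6 samples had been through 2 rounds of amplification from a T7 promoter.

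Mitochondria carry their own small genome, which encodes ribosomal RNAs, transfer RNAs and a few subunits of the respiratory chain. The proteins of the mitochondrial ribosome are all encoded in the nucleus, made in the cytosol and imported, so the ribosome is built from products of both genomes. Many have a homologue in the bacterial ribosome, and others are found only in mitochondria. Neurons with long axons depend on mitochondrial ATP, and the mitochondrial ribosome makes the core subunits of the complexes that supply it.

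All 6 arrays were used. Their median deposited signals lay between 267 and 315, but the deposited values had been brought to a common level, so this says little about quality. The difference between the 3′ and 5′ control probe sets of Actb, a measure of RNA length, was 4.20 to 5.14 on the log2 scale over the 6 arrays. Arrays correlated at 0.918 to 0.957 within groups and at 0.901 to 0.937 between groups (Pearson's r across probe sets, which are not independent replicates). Xist, which marks the inactive X chromosome, was at 12.83 and 12.91 (log2 signal) on SOD1 replicates 1 and 2 and between 5.71 and 7.07 on the other 4 arrays, so sex may differ between and within the groups. Motor neuron markers were well above the level of bacterial control probe sets. All 15 probe sets of these markers that passed the filter were above that level on all 6 arrays.

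The samples also differed in markers of other cells. The summed signal of 15 microglial and myeloid markers was 10950 to 47968 on the WT arrays and 119170 to 232508 on the SOD1 arrays, and 12 of the 15 were higher in SOD1 without overlap. For 10 astrocyte markers the sums were 203073 to 211124 in WT and 242628 to 247754 in SOD1 (6 of 10 higher and 1 lower without overlap), and for 10 oligodendrocyte markers 203040 to 239828 and 265569 to 282140 (4 of 10). The 12 endothelial and mural markers had sums of 31967 to 71622 in WT and 7657 to 23580 in SOD1 (6 of 12 lower without overlap). The 12 motor neuron markers summed to 525332 to 589243 in WT and 476756 to 526678 in SOD1, which overlap, with 4 lower and 1 higher without overlap. In all 5 lists, 0 markers were at the background level on all 6 arrays. The part of these cells in the values of the mitochondrial ribosomal genes was not tested.

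No mitochondrial ribosomal probe set was called different between SOD1 and WT once the test was adjusted over the whole array. Values are log2 signals after quantile normalisation, with 16 added, and a probe set was tested when its mean exceeded the 40th percentile of the array, a log2 signal of 7.38. Of the 156 probe sets 140 passed that filter, and each of the 76 genes kept at least 1. By limma with Benjamini-Hochberg adjustment, 0 of the 140 were called higher and 0 lower at an adjusted p under 0.05, against 0.0629% called higher and 0.122% called lower among all 27022 probe sets tested, and 0.185% in either direction. With so few calls over the whole array, 0 of 140 is close to the background share and does not show that the members were unchanged. The lowest adjusted p among the 140 was 0.131. At an unadjusted p under 0.05, 16 were higher in SOD1 and 7 lower, or 11.4% and 5%, against a background of 7.09% and 7.58%. In such bulk RNA, fewer cells of a type and less RNA per cell cannot be told apart.

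The estimates lay more often above 0 than below. Of the 140 probe sets, 90 had a positive log2 difference (64.3%, against 49.5% of all probe sets tested) and 50 a negative one, against 50.5% negative over all. Their median difference, SOD1 minus WT, was 0.11 on the log2 scale, with quartiles of -0.16 and 0.35, against a median of -0.01 over all probe sets. The 3 SOD1 arrays all lay above the 3 WT arrays for 25 probe sets, or 17.9% against a background of 10.5%, and all below for 7, or 5% against 9.81%. Among probe sets with a mean log2 signal over 12, a limit chosen after the data were seen, 82 were mitochondrial ribosomal, and of these 22% were higher without overlap and 6.1% lower, against 15.4% and 13.4% of the 7357 probe sets of the table with that signal. The median kept its sign under both other scalings, with 0.08 on the deposited scale and 0.18 after median centring, where the medians of all probe sets were -0.06 and 0.04. With the Xist level as a covariate it was 0.20. Xist was high on SOD1 replicates 1 and 2 alone, so in that fit the group difference rests mainly on SOD1 replicate 3. It is therefore not a separate check of the median. With the highest probe set of each gene alone, 48 of 76 estimates were positive, with a median of 0.11, while with the mean of each gene's probe sets the median over the 76 genes was 0.05.

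This lean toward SOD1 rested on 2 arrays. SOD1 replicate 3 held the highest of the 6 values for 53 of the 140 probe sets (37.9%, against 19.9% over all probe sets tested), and WT replicate 3 held the lowest for 47 (33.6%, against 18.9%). The median deviation of the 140 probe sets from their own means over the 6 arrays was -0.03, 0.03 and -0.14 on WT replicates 1, 2 and 3 and 0.02, -0.04 and 0.19 on SOD1 replicates 1, 2 and 3. The other 2 SOD1 arrays thus lay among the WT arrays. Over all probe sets tested this deviation was 0.02 to 0.04 on every array. SOD1 replicate 3 also had the lowest 3′ to 5′ difference of Actb (4.20) and the lowest median deposited signal (267), with Xist at 5.71. On WT replicate 3 these were 4.83, 301 and 5.76. Their part in the lean was not tested. Without SOD1 replicate 3 the median difference of the mitochondrial ribosomal probe sets was 0.02, with 73 of 139 estimates positive, and without WT replicate 3 it was 0.04, with 74 of 141 positive. Without both, a setting added after the data were seen, it was -0.01, with 67 of 141 positive, and 29 probe sets were higher and 29 lower without overlap, or 20.6% each against backgrounds of 22.6% and 21.4%. Between arrays of a group, the array medians had an SD of 0.10, about the size of the median difference itself.

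**Figure D1:**
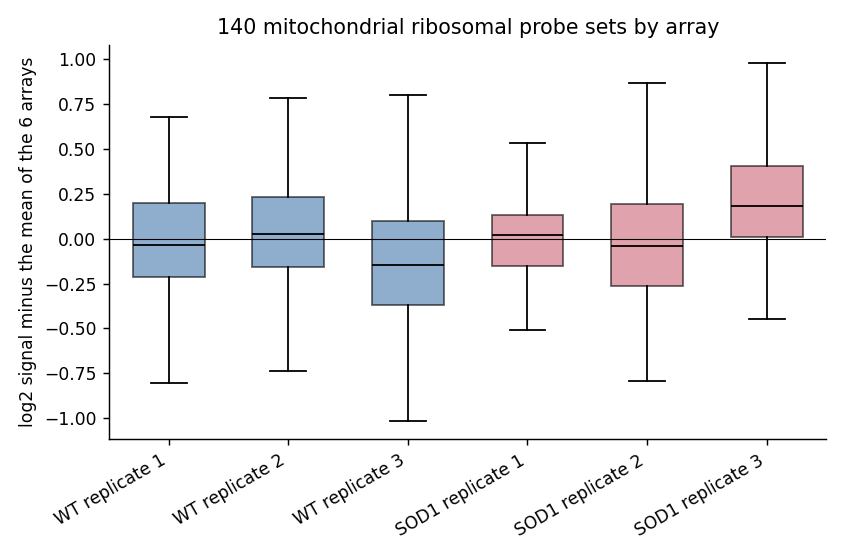
Log2 signal of each of the 140 mitochondrial ribosomal probe sets minus its mean over the 6 arrays, by array (y axis, log2 units). Boxes span the quartiles with the median as a line and whiskers reach the furthest value within 1.5 box lengths, blue for WT and red for SOD1. SOD1 replicate 3 (median 0.19) lies highest and WT replicate 3 (median -0.14) lowest, and the other 4 arrays lie between -0.04 and 0.03.

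The 2 subunits, as given by the gene symbols, were described separately, with no test between them. The small subunit so defined includes Mrps18a, found in the large subunit, and Mrps36, since described as part of another complex. For the large subunit, 64 of 92 probe sets had a positive estimate (69.6%), with a median of 0.13, and 16 were higher and 3 lower without overlap (17.4% and 3.26%, against backgrounds of 10.5% and 9.81%). For the small subunit, 26 of 48 were positive (54.2%), with a median of 0.02, and 9 were higher and 4 lower without overlap (18.8% and 8.33%). Both medians moved with single arrays. That of the large subunit was 0.05 without WT replicate 3, 0.05 without SOD1 replicate 3 and -0.00012 without both, and 0.24 with median centring and 0.24 with the Xist level as a covariate. That of the small subunit was below 0 in 4 of the 6 fits with 1 array left out, between -0.08 without SOD1 replicate 3 and 0.09 without SOD1 replicate 1. It was -0.07 without both replicates numbered 3, -0.02 with values as deposited, 0.08 with median centring and 0.14 with the Xist covariate. For both subunits the fit with that covariate rests mainly on SOD1 replicate 3. Proteins with a bacterial homologue had a median of 0.13 over 87 probe sets, of which 62 were positive, and proteins found only in mitochondria had one of 0.03 over 52, of which 28 were positive. Of the 15 probe sets with an Mrps symbol and a protein found only in mitochondria, 5 were higher and 2 lower without overlap (33.3% and 13.3%). Their median was -0.03. These 15 are grouped by symbol, and the counts include Mrps31 more than once and Mrps25 in each direction.

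**Figure D2:**
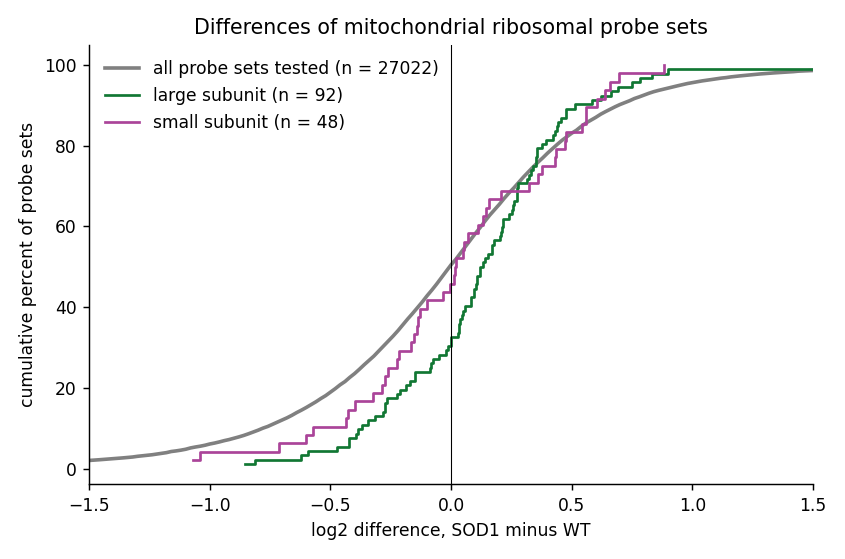
Cumulative percent of probe sets (y axis) against the log2 difference, SOD1 minus WT (x axis), for the 92 probe sets of the large subunit (green), the 48 of the small subunit (purple) and all 27022 tested (grey). The green curve reaches its middle to the right of the grey one (median 0.13 against -0.01), and the purple one close to the grey one (median 0.02). Subunits are taken from the gene symbols, and some probe sets lie outside the range drawn.

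Among small subunit genes with higher values in SOD1, Mrps33 gave the lowest p of all members. Mrps33 encodes a protein of the small subunit with no bacterial counterpart. It read 14.20, 13.95 and 14.08 (log2 signal) on WT replicates 1 to 3 and 14.51, 14.73 and 14.98 on SOD1 replicates 1 to 3, with all SOD1 arrays above all WT arrays. The difference was 0.66 ± 0.16 (SE, n = 3 per group), 1.58-fold (limma, adjusted p = 0.131). Mrps22, another protein found only in mitochondria and mutated in a human mitochondrial disease, read 13.92, 13.94 and 13.79 in WT and 14.34, 14.46 and 14.77 in SOD1, a difference of 0.64 ± 0.16 (adjusted p = 0.137). The groups were again apart, with SOD1 replicate 3 the highest.

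Mrps24, the counterpart of a bacterial protein at the entry of the messenger RNA channel, was read by 2 probe sets that pointed the same way. The one with the larger difference gave 13.07, 13.29 and 13.04 in WT and 13.60, 13.90 and 14.01 in SOD1, a difference of 0.70 ± 0.19 (limma, adjusted p = 0.146), and the other differed by 0.56 ± 0.17 (adjusted p = 0.176). Neither overlapped between the groups. By its suffix each may read transcripts of more than 1 gene. Mrps31, a small subunit protein found only in mitochondria, also had 2 probe sets without overlap. That with the larger difference was dim, at 7.98, 8.21 and 8.20 in WT and 8.91, 8.50 and 9.63 in SOD1 (0.88 ± 0.47, limma, adjusted p = 0.410), and the brighter one differed by 0.60 ± 0.24 (adjusted p = 0.278). Without SOD1 replicate 3 the dim one differed by 0.57.

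In the large subunit, Mrpl20 was the bright probe set with the largest positive difference. Its bacterial homologue is needed early in the assembly of the large subunit. Mrpl20 read 13.35, 13.27 and 13.43 in WT and 13.74, 14.03 and 14.53 in SOD1, a difference of 0.75 ± 0.21, 1.68-fold (limma, adjusted p = 0.156). The 3 WT arrays lay close together (SD 0.08) and the SOD1 arrays were spread (SD 0.40), with replicate 3 highest. Dimmer probe sets of Mrpl17 and Mrpl27, both counterparts of bacterial large subunit proteins, were also apart. That of Mrpl17 read 7.83, 7.91 and 7.42 in WT and 8.24, 8.42 and 9.20 in SOD1 (0.90 ± 0.51, adjusted p = 0.443), while its other 2 probe sets differed by 0.11 ± 0.48 and 0.0010 ± 0.19. That of Mrpl27 read 9.34, 9.52 and 9.08 in WT and 10.10, 9.62 and 10.30 in SOD1 (0.69 ± 0.36, adjusted p = 0.396), and its brighter probe set, whose groups overlapped, differed by 0.44 ± 0.21.

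The largest difference of any member came from 1 dim probe set of Mrpl15, a large subunit protein. It read 6.87, 7.94 and 5.30 in WT and 7.60, 9.95 and 9.58 in SOD1, 2.34 ± 0.81 (limma, adjusted p = 0.231), with overlap between the groups and 2 arrays at the background level. A brighter probe set of the same gene pointed the other way, at 13.72, 13.38 and 13.21 in WT and 12.91, 12.74 and 12.89 in SOD1, without overlap (-0.59 ± 0.20, adjusted p = 0.226). The brightest Mrpl15 probe set, with a mean of 15.02, differed by -0.02 ± 0.13. The 7 tested probe sets of the gene thus gave no common direction, with 4 positive and 3 negative.

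Of the members with lower values in SOD1, Mrpl4 and Mrps26 had the lowest p. Mrpl4 belongs to the large subunit, where its bacterial homologue lines the tunnel through which the new protein leaves. It read 13.73, 14.26 and 13.94 in WT and 13.48, 13.02 and 12.98 in SOD1, all SOD1 arrays below all WT arrays. The difference was -0.81 ± 0.21, 1.76-fold lower (limma, adjusted p = 0.140). Mrps26, a small subunit protein found only in mitochondria, read 13.95, 13.96 and 14.00 in WT and 13.46, 13.28 and 13.37 in SOD1, a difference of -0.60 ± 0.16 (adjusted p = 0.147). Its WT arrays agreed within an SD of 0.02.

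Mrps12, whose bacterial homologue sits at the decoding centre and is where streptomycin resistance arises, read 14.31, 14.45 and 14.33 in WT and 14.11, 13.89 and 13.89 in SOD1 (-0.40 ± 0.15, limma, adjusted p = 0.264), on a probe set with the same suffix. Mrps36 read 13.55, 13.66 and 13.54 in WT and 13.32, 12.97 and 13.14 in SOD1 (-0.44 ± 0.18, adjusted p = 0.306). Both were lower on all 3 SOD1 arrays. Mrps36 is named as a ribosomal protein but has since been described as a subunit of the oxoglutarate dehydrogenase complex. Dim probe sets of Mrps25 and of Mrpl58, a peptidyl-tRNA hydrolase built into the large subunit, were lower without overlap as well. That of Mrps25 read 9.17, 9.0 and 8.87 in WT and 8.85, 8.23 and 6.82 in SOD1 (-1.04 ± 0.56, adjusted p = 0.420), and that of Mrpl58 9.06, 7.99 and 8.28 in WT and 7.79, 7.94 and 7.04 in SOD1 (-0.85 ± 0.55, adjusted p = 0.510). The difference of the dim Mrps25 probe set was -0.47 without SOD1 replicate 3, and that of Mrpl58 was -0.55 without WT replicate 1. Brighter probe sets of these genes did not show such a fall. Those of Mrps25 gave 0.44 ± 0.25, higher in SOD1 without overlap, and -0.0049 ± 0.17, and that of Mrpl58 gave 0.03 ± 0.19.

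**Figure D3:**
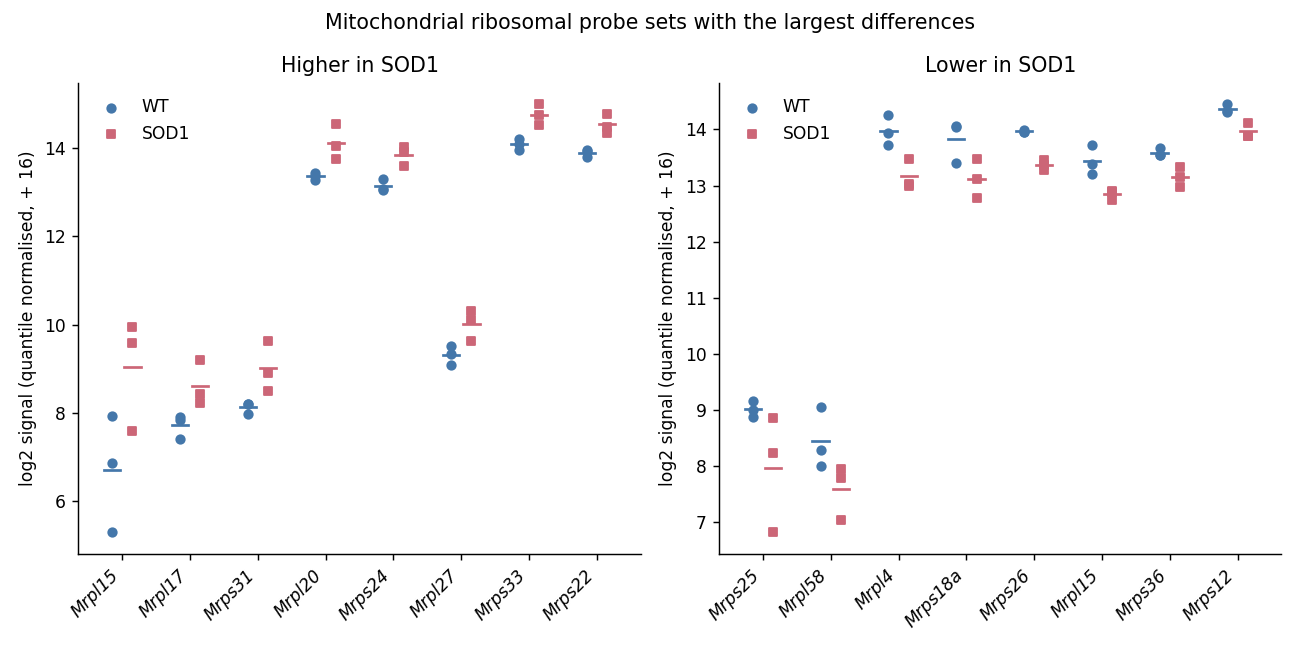
Log2 signal (y axis) on the 3 WT arrays (blue circles) and 3 SOD1 arrays (red squares) for the 8 probe sets with the largest positive and the 8 with the largest negative differences among those with an unadjusted p under 0.05 or no overlap. Horizontal lines are group means, and signals of different probe sets are not comparable with each other. Mrps33, Mrps22, Mrps24 and Mrpl20 lie higher on every SOD1 array, and Mrpl4, Mrps26 and Mrps12 lower. The 2 Mrpl15 probe sets point in opposite directions.

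The Mrps18 paralogues, 3 proteins related to 1 bacterial small subunit protein, had estimates of both signs. Mrps18a, whose protein is found in the large subunit in spite of its name, read 14.06, 14.04 and 13.41 in WT and 13.47, 12.78 and 13.12 in SOD1, which overlap (-0.71 ± 0.24, limma, adjusted p = 0.218). Mrps18b read 13.22, 13.20 and 12.93 in WT and 13.23, 12.60 and 13.14 in SOD1 (-0.13 ± 0.22, adjusted p = 0.828). Mrps18c read 14.10, 13.84 and 13.96 in WT and 13.96, 14.57 and 14.79 in SOD1 (0.47 ± 0.21, adjusted p = 0.331). All 3 overlapped between the groups, without SOD1 replicate 2 the estimate of Mrps18b was 0.07, and that of Mrps18c was 0.30 without SOD1 replicate 3 and 0.71 without SOD1 replicate 1. Mrpl12, which forms the flexible stalk of the large subunit and has been reported to bind the mitochondrial RNA polymerase, read 14.13, 14.56 and 14.43 in WT and 14.28, 14.50 and 14.58 in SOD1 (0.08 ± 0.16, adjusted p = 0.859).

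The brightest probe sets of the set varied little. Mrpl41, a large subunit protein found only in mitochondria, read 16.44, 16.54 and 16.47 in WT and 16.62, 16.74 and 16.91 in SOD1, a difference of 0.27 ± 0.10 without overlap (limma, adjusted p = 0.229). Mrpl39 read 16.17, 16.05 and 16.05 in WT and 16.18, 16.23 and 16.23 in SOD1 (0.12 ± 0.09, adjusted p = 0.589). Mrps14, a small subunit protein with a bacterial homologue, read 15.47, 15.53 and 15.65 in WT and 15.71, 15.97 and 16.05 in SOD1 (0.36 ± 0.12, adjusted p = 0.217), while Mrpl22, whose groups overlapped, differed by 0.06 ± 0.12. For Mrpl41, Mrpl39 and Mrps14 the groups were apart by less than 0.1 at their nearest arrays. At the other end, the dimmest tested probe sets were those of Mrpl41 (0.43 ± 0.80), Mrps21 (-0.57 ± 0.64), Mrpl47 (0.09 ± 0.63) and the Mrpl15 probe set given above, each with at least 1 array at the background level. The median SD within groups was 0.27 over the 140 probe sets and 0.42 over all those tested, and it was 0.22 against 0.24 where the mean log2 signal exceeded 12.

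Further members were higher in SOD1 without overlap at smaller differences. They were probe sets of Mrpl32, Mrpl33, Mrpl50, Mrpl23, Mrpl13, Mrps25, Mrpl11, Mrps16, Mrpl35, Mrpl18, Mrpl48, Mrpl36 and a second one of Mrpl39, at 0.58 for Mrpl32 down to 0.14 for Mrpl36. Mrpl32, which is cut by a mitochondrial protease before it joins the ribosome, read 12.97, 12.62 and 13.05 in WT and 13.30, 13.37 and 13.73 in SOD1. The other 108 tested probe sets overlapped between the groups. Of the 16 probe sets below the filter, which were not tested, 2 were lower without overlap. They were those of Mrpl52 and Mrps11, with 2 and 3 arrays at the background level. With no filter, 5.77% of the 156 members were lower without overlap, against 7.89% of all probe sets.

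Probe sets of the same gene did not always point the same way. Of the 36 genes with at least 2 tested probe sets, 20 had estimates of a single sign, 17 of them positive and 3 negative, and 16 had both signs. The genes with only positive estimates include Mrps24, Mrps31, Mrpl9, Mrpl50, Mrps9 and Mrpl41, and those with only negative ones are Mrpl44, Mrps6 and Mrps23. With single arrays left out, each of the 4 Mrps9 probe sets fell below 0 at least once. A probe set of Mrpl9 was at -0.067 without WT replicate 3, while those of Mrps24, Mrps31, Mrpl50 and Mrpl41 stayed above 0. Mrpl44, which resembles an RNase, ranged from -0.42 to -0.15 over 4 probe sets. The estimate of -0.42, from a dim probe set, was 0.34 without SOD1 replicate 2. The 16 with both signs were Mrpl1, Mrpl3, Mrpl15, Mrpl19, Mrpl21, Mrpl28, Mrpl38, Mrpl48, Mrpl49, Mrpl51, Mrpl57, Mrpl58, Mrps5, Mrps15, Mrps21 and Mrps25. Mrps5 was the widest of these after Mrpl15, from -1.07 on a dim probe set, which was -0.47 without SOD1 replicate 2, to 0.43.

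**Figure D4:**
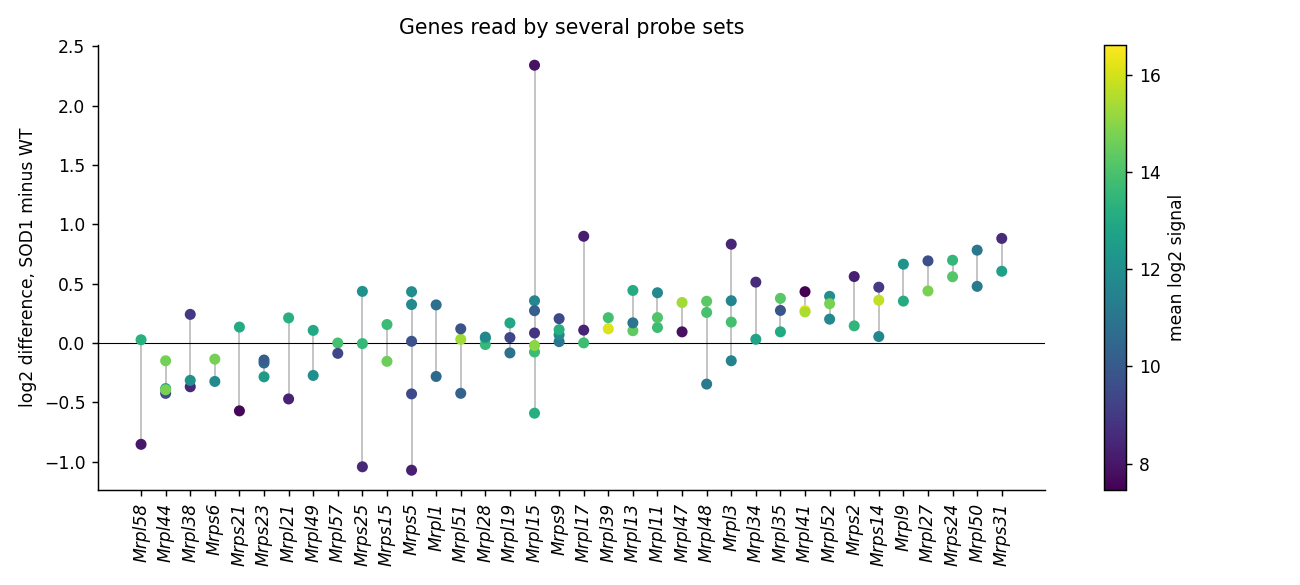
Log2 difference, SOD1 minus WT (y axis), of every tested probe set for the 36 genes with at least 2, ordered by their median. Each point is a probe set coloured by its mean log2 signal, and grey lines join the probe sets of a gene. The estimates furthest from 0 (Mrpl15 at 2.34, Mrps5 at -1.07, Mrps25 at -1.04) come from dim probe sets, and brighter ones of these genes lie nearer to 0.

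Promoters of the members were compared with those of other genes, since the nuclear factors NRF1, GABP and YY1 are known regulators of genes for mitochondrial gene expression. RefSeq promoters (GRCm38.p6) matched 67 of the 76 genes, and the 250 bases before the first listed start were searched on both strands. The GABP letters CCGGAAG were found in 16 of the 67 (23.9%), against 9.13% of 17492 protein-coding genes, the NRF1 consensus in 9 (13.4%, against 5.3%) and the YY1 letters AAGATGGC in 4 (5.97%, against 1.51%). The SP1 letters GGGCGG were in 49.3% against 42.7%, CCAAT in 35.8% against 36.3% and the TATA box letters TATAAA in 5.97% against 12.4%. Taking the brightest probe set of each gene, genes with the GABP letters had a median log2 difference of 0.04 and those without 0.13. For the NRF1 consensus these were 0.08 and 0.14, for the YY1 letters -0.04 and 0.12, and for the SP1 letters 0.03 and 0.14. For CCAAT they were 0.13 and 0.11, and for the TATA box letters 0.10 and 0.12. A match is only a match of letters, and these medians were not tested.

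The 120 bases before the start are shown for 5 genes with higher and 3 with lower values in SOD1, to set side by side promoters of members whose values pointed in opposite directions. Each window overlaps no annotated gene. Capitals mark matches to the letters above on either strand, where CCGCCC is SP1 and ATTGG is CCAAT read on the other strand, and adjoining capitals are overlapping or neighbouring matches.
Mrps33, chr6:39810937-39811056, minus strand, SP1: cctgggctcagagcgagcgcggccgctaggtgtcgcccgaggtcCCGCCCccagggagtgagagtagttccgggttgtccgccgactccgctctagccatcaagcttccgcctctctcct
Mrps22, chr9:98601680-98601799, minus strand, GABP: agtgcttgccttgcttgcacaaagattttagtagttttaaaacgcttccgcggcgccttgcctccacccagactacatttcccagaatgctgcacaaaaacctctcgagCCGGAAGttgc
Mrps24, chr11:5707702-5707821, minus strand, SP1: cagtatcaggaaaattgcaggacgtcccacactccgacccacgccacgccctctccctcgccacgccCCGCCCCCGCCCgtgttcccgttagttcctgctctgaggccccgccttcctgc
Mrpl20, chr4:155802758-155802877, plus strand, no match: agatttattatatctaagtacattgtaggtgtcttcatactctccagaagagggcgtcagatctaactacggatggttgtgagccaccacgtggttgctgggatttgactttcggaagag
Mrpl32, chr13:14613038-14613157, minus strand, NRF1 and SP1: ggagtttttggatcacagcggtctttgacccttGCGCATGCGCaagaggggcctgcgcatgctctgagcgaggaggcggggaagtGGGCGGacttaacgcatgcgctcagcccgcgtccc
Mrps12, chr7:28741822-28741941, minus strand, CCAAT: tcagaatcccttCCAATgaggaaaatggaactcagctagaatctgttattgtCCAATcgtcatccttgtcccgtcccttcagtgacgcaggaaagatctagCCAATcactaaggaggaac
Mrps18a, chr17:46110884-46111003, plus strand, GABP: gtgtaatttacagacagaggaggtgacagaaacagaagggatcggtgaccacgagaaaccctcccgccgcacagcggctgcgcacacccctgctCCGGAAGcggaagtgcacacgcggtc
Mrps36, chr13:100744660-100744779, minus strand, CCAAT and SP1: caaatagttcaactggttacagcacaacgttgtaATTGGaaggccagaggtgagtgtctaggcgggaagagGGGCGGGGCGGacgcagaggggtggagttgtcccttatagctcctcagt
GABP letters occur in both directions of difference, in Mrps22 (0.64) and Mrps18a (-0.71), and so do SP1 letters, in Mrps33 (0.66) and Mrps36 (-0.44).

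Many members share their promoter region with a neighbour that is read in the other direction. Such a head-to-head partner, a protein-coding gene on the other strand whose start lies within 1000 bases upstream, was found for 23 of the 67 genes (34.3%), against 8.04% of the 17492 protein-coding genes. In 1 case both are members, Mrpl46 (0.25 ± 0.17) and Mrps11 (-0.22 ± 0.26). Mrps12 (-0.40 ± 0.15) lies head to head with Sars2, the mitochondrial seryl-tRNA synthetase gene (-0.66 ± 0.43), and Mrpl47 (0.34 ± 0.14) with Ndufb5, a subunit of respiratory complex I (0.27 ± 0.14). Mrpl32 (0.58 ± 0.21) lies beside the proteasome gene Psma2 (0.38 ± 0.11), and Mrpl43 (-0.27 ± 0.21) beside Twnk, the helicase of mitochondrial DNA (0.07 ± 0.36). Of the 19 pairs with both genes tested, 11 had estimates of the same sign and 8 of opposite signs.

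Other genes of mitochondrial gene expression gave no calls either. By limma, 0 probe sets passed an adjusted p under 0.05 in any of 7 lists of mitochondrial genes outside the Mrpl and Mrps symbols, in the list of their regulators or in that of cytosolic ribosomal proteins. Over all probe sets tested the share was 0.185%. At an unadjusted p under 0.05 (limma), 7.09% of all probe sets tested were higher and 7.58% lower. Among mitochondrial ribosomal subunits under other names, 1 of 5 probe sets (20%) was higher at that threshold. This was Chchd1, a small subunit protein, at 14.78, 14.43 and 14.49 in WT and 15.07, 15.46 and 15.48 in SOD1 (0.76 ± 0.16, adjusted p = 0.0931), above WT on all SOD1 arrays. Dap3, which binds GTP in the small subunit, was at -0.05 ± 0.14.

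Of 20 probe sets of translation factors, 2 were higher and 1 lower at an unadjusted p under 0.05 (10% and 5%), with a list median of 0.05. Over all probe sets tested, 7.09% were higher and 7.58% lower at that threshold. Slirp, which binds mitochondrial messenger RNA, differed by 0.53 ± 0.12 (limma, adjusted p = 0.117), Guf1 by 0.90 ± 0.38 and the elongation factor gene Tufm by -0.79 ± 0.34, the last 2 with overlap between the groups. Of 40 probe sets of ribosome assembly factors, 2 were higher and 3 lower (5% and 7.5%), with a median of -0.08. Fastkd2 was at 0.61 ± 0.18, and Dhx30, an RNA helicase, at -2.0 ± 0.58 and -1.0 ± 0.34 on 2 of its 4 probe sets, whose WT replicate 3 read 10.71 and 13.21, near the SOD1 arrays. Of 26 probe sets of mitochondrial aminoacyl-tRNA synthetases, 1 was higher (Rars2, 0.45 ± 0.20) and 1 lower (Ears2, -2.16 ± 0.68), or 3.85% each, with a median of 0.07. That Ears2 probe set had 2 arrays at the background level, and another of the gene gave 0.68 ± 0.69.

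Genes that transcribe and maintain mitochondrial DNA had a median of 0.28 over 23 probe sets, 3 higher and 3 lower at an unadjusted p under 0.05 (limma). That is 13% each, against 7.09% and 7.58% over all probe sets tested. Both probe sets of Polrmt, the mitochondrial RNA polymerase, were lower, at -1.32 ± 0.38 and -1.05 ± 0.33 (adjusted p = 0.159 and 0.187), and Ssbp1, which coats single-stranded mitochondrial DNA, was at 0.80 ± 0.28 (adjusted p = 0.231). The regulators had a median of 0.12 over 21 probe sets, with 1 higher, Gabpa of the GABP factor (1.05 ± 0.38), and 1 lower, the coactivator Ppargc1b (-1.27 ± 0.30, adjusted p = 0.117). Each of these counts was 4.76% of the list. Another Gabpa probe set gave 0.15 ± 0.32. The only transcript of mitochondrial DNA among the tested probe sets with 1 symbol, ND5, read 16.86, 17.00 and 16.74 in WT and 16.48, 17.00 and 16.49 in SOD1 (-0.21 ± 0.14, adjusted p = 0.505).

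Set beside the cytosolic ribosome, the mitochondrial one had a smaller median difference and more estimates below 0. The cytosolic list holds 77 genes, of which only 43 had a tested probe set with 1 symbol, so it covers part of that ribosome. Of 87 probe sets of these cytosolic ribosomal proteins, 75 had a positive estimate (86.2%), with a median of 0.24. Without overlap, 33.3% were higher and 1.15% lower. The mitochondrial ribosome had 64.3% positive, a median of 0.11, and 17.9% higher and 5% lower without overlap. Nuclear subunits of oxidative phosphorylation, whose assembly needs the products of the mitochondrial ribosome, had a median of 0.06 over 142 probe sets. Of these, 20.4% were higher and 9.15% lower without overlap. At an unadjusted p under 0.05 (limma), 22 were higher and 9 lower, or 15.5% and 6.34%. For the cytosolic ribosome these counts were 22 and 1, or 25.3% and 1.15%. Over all probe sets tested the shares were 7.09% and 7.58%, and 11.9% and 12.1% where the mean log2 signal exceeded 12. Among the oxidative phosphorylation subunits, Uqcrh was at 0.50 ± 0.12 and Atp5j2 at 0.46 ± 0.11 (limma, adjusted p = 0.117 and 0.121). These differences between lists were not tested. The cytosolic and oxidative phosphorylation lists were brighter, with median log2 signals of 15.14 and 15.68 against 12.85 for the mitochondrial ribosome. Over all probe sets tested, 10.5% were higher and 9.81% lower without overlap, and 15.4% and 13.4% where the signal exceeded 12. Neither brighter list was refitted with single arrays left out.

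**Figure D5:**
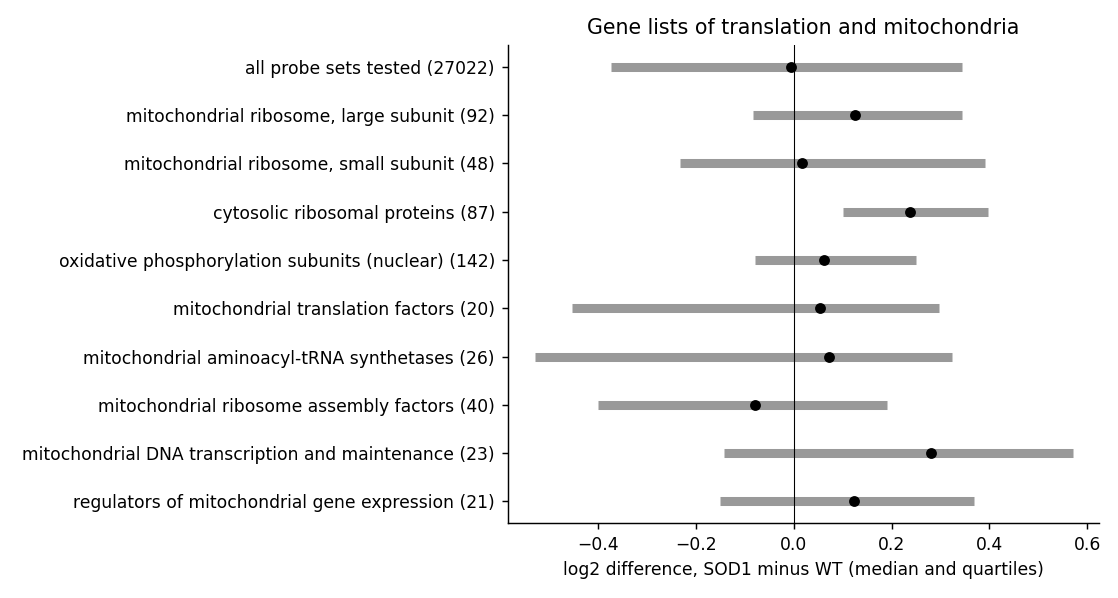
Median (points) and quartiles (grey bars) of the log2 difference, SOD1 minus WT (x axis), over the tested probe sets of each list, with the number of probe sets in parentheses. Subunits are taken from the gene symbols. The large subunit of the mitochondrial ribosome (median 0.13) lies between the small subunit (0.02) and the cytosolic ribosomal proteins (0.24), and the quartiles of each mitochondrial list drawn span 0.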

How the data were processed

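Each deposited file value is a signal intensity on a linear scale for a probe set on an array, and no detection calls came with them. The intensities lay between 0.688 and 232137. Each array had a 2% trimmed mean of 2500.02, so the authors' values had been brought to a common level. The sources used here name neither the algorithm nor the scanner settings. Amplification in 2 rounds from T7 is per the labels' protocols.

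The arrays were quantile normalised, 16 was added and log2 taken. The 64 control probe sets were left out, and 27022 of 45037 others passed the filter at the 40th percentile. The groups were compared, SOD1 minus WT, by limma 3.58.1 under R 4.3.3 (lmFit, eBayes with a variance trend), two-sided, adjusted by Benjamini-Hochberg over all 27022, and the steps were tested on simulated data. With 3 arrays per group, their number limits the precision. Adding 16 understates changes of low probe sets. The background level of an array is the 95th percentile over its 27 control probe sets of bacterial genes. All 156 members matched RefSeq genes (GRCm38.p6) by Entrez identifier, with 0 symbols updated. Classes by bacterial homologue are from general knowledge.

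The members and lists were chosen with earlier results of these data known. Members named with values are the 8 largest differences in each direction with an unadjusted p under 0.05 or no overlap, the 4 with the highest and the 4 with the lowest signal, genes whose probe sets differ in sign, the Mrps18 paralogues and Mrpl12. Up to 3 genes of each other list of mitochondrial or ribosomal genes are named by smallest p. Others were named after their values were seen. Same-numbered arrays of the 2 groups did not deviate together (r = 0.03, -0.04 and -0.01), so no block was used. Alternatives were other scalings, pseudocounts of 1 and 64, other filters and variance models, array weights, a replicate block, an Xist covariate, no shared-transcript probe sets and each array left out. Figures were drawn with matplotlib 3.10.9.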

Additional observations from a re-analysis of the deposited data

How the results depend on the processing

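No mitochondrial ribosomal probe set passed an adjusted p under 0.05 by limma in any of the 19 alternative settings or in the main one, and 0 passed 0.1 in the main one. With the filter at the 60th percentile 3 passed 0.1 (Mrps33, Mrpl4 and Mrps22), and with the Xist level as a covariate 1 did (Mrpl20). The count over all probe sets, 50, was less stable. It was 87 with a pseudocount of 64, 106 with a filter at the 60th percentile, 0 with no variance trend, 100 with array weights and 76 with the replicate number as a block, and 0 (without WT replicate 2) to 77 (without WT replicate 3) when 1 array was left out. The block changed no call among the members. The same-numbered arrays share only a number.

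The median difference of the members, 0.11, ranged from 0.02 (without SOD1 replicate 3) to 0.14 (without SOD1 replicate 1) with 1 array left out. It was 0.20 with the Xist level as a covariate, a fit that rests mainly on SOD1 replicate 3. Without both replicates numbered 3 it was -0.012, and 29 probe sets were higher and 29 lower without overlap. That is 20.6% each, against 22.6% and 21.4% of all probe sets. With 1 array left out, 26 to 41 probe sets were higher without overlap (18.7% to 28.9%, against 14.1% to 17% of all probe sets) and 8 to 17 lower (5.76% to 12%, against 13.1% to 16.5%). Leaving out 1 array turned the sign of 50 of the 140 estimates at least once. These reach far from 0, such as dim probe sets of Mrpl3 (0.83, and -0.029 without WT replicate 3), Mrps2 (0.56, and -0.64 without WT replicate 1) and Mrpl44 (-0.42, and 0.34 without SOD1 replicate 2). Mrpl12 ranged from -0.040 to 0.17, Mrps18b from -0.25 to 0.067, Mrpl22 from -0.030 to 0.14 and the dim Mrpl47 probe set from -0.27 to 0.50 with 1 array left out, Mrpl22 was at -0.035 with the Xist level as a covariate, and Mrpl47 was at -0.45 without both replicates numbered 3. Values as deposited turned 12 of the 140 and median centring 7. The cause was not tested. Dim probe sets, with 9 of the 140 at the background level on at least 1 array, limit what can be read from the largest differences.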
